A study of Mus musculus with 63 samples.

Results

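The genes described here encode the respiratory chain and ATP synthase of the mitochondrial inner membrane, together with the complex I assembly factors that share their symbols. They were taken from the gene count table as the protein-coding genes of the GENCODE M21 annotation whose symbols begin with Nduf, Uqcr, Cox4 to Cox8 or Atp5, are Sdha to Sdhd, or name a protein-coding gene of the mitochondrial genome, with a mean of at least 1 CPM (the count scaled by library total, without TMM factors) over the 63 libraries. Of 107 genes with such symbols among the 55401 genes of the table, 101 reached that level. In later paragraphs CPM from the gene table carries TMM factors too, except where given per kilobase. They comprise 90 nuclear genes and 11 genes of the mitochondrial genome. Complex I is covered by 38 nuclear and 6 mitochondrial genes and its assembly by 8 Ndufaf genes. Complex II is covered by 4 nuclear genes and complex III by 8 nuclear and 1 mitochondrial. Complex IV is covered by 14 nuclear and 3 mitochondrial genes, and ATP synthase, complex V, by 18 nuclear and 1 mitochondrial. The genes left out nearest the limit were Cox7a1 (0.993 CPM), Cox8b (0.814), mt-Atp8 (0.766), mt-Nd4l (0.740) and Cox7b2 (0.384), with Cox8c near 0. Those kept nearest to it were Cox4i2 (1.15 CPM), mt-Nd3 (1.57) and Cox6a2 (1.88). Complexes were assigned by symbol, so Ndufa4, now known as a subunit associated with complex IV, is counted with complex I, and 2 gene identifiers share the symbol Atp5o.

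The series measured RNA of the dorsal hippocampus in adolescents of 2 inbred mouse strains, with 31 libraries from C57BL/6J and 32 from DBA/2J. Males and females were given ethanol (1.5 g/kg) or saline and were assigned to fear conditioning (FC) or to a control without it (noFC). The full cross of these 4 factors made 16 groups, 15 with 4 libraries and 1, male C57BL/6J given saline and conditioned, with 3. The labels name no engineered allele in any group. Tissue was bulk tissue, in which fewer cells of a type and less RNA per cell cannot be told apart. Total gene counts ran from 21027659 to 61631742 per library (median 26379948). The labels do not say that libraries came from separate animals, so the p-values measure the spread between these libraries. Neuron markers summed to 3922 to 5713 CPM over all libraries and the dentate granule cell markers to 133 to 404 CPM, and the CA1 and CA3 markers were also detected. Choroid plexus markers, which are not of hippocampal cells, ran from 195 to 18520 CPM. Coordinates refer to GRCm38.

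The respiratory chain passes electrons from NADH (complex I) and succinate (complex II) through complex III to complex IV, which reduces oxygen, and the proton gradient this builds drives complex V. Complex II is made from nuclear genes alone, whereas each of the others joins nuclear subunits to a few made inside the mitochondrion from its own circular genome. Mitochondrial genes are copied as long transcripts from either strand and then cut, and most are adenylated, so that poly(A) libraries such as these contain them. Neurons rely on this pathway for the ATP that restores ion gradients after firing.

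The 11 mitochondrial genes took a larger part of the RNA than the 90 nuclear genes in each library. Their summed level was 37380 to 51660 CPM in C57BL/6J (median 42100, mean 42400 ± 3080 SD, n = 31) and 33330 to 47240 CPM in DBA/2J (median 38960, mean 39230 ± 3544, n = 32). The DBA/2J libraries were shifted downward, with wide overlap between the strains. The nuclear sum was 7944 to 9530 CPM in C57BL/6J (median 8647, mean 8655 ± 391, n = 31) and 8065 to 9607 CPM in DBA/2J (median 8687, mean 8697 ± 403, n = 32), so the strains lay on top of each other. The mitochondrial to nuclear ratio had a median of 4.85 (4.23 to 5.81) in C57BL/6J and 4.49 (3.85 to 5.32) in DBA/2J. To these sums and ratios mt-Co2, mt-Atp6, mt-Co3 and mt-Nd3 added only a few CPM each on average. They were abundant in a second table, of counts per transcript, as described further on. The mitochondrial sum of the gene table therefore does not reflect the levels that the second table gives for them. On the log2 scale the mitochondrial sum differed by -0.11, DBA/2J minus C57BL/6J, against a spread within groups of 0.13 (SD), and the nuclear sum differed by 0.0084 against 0.067. Over the 16 groups, the medians of the nuclear sum ran from 8153 to 8932 CPM and those of the mitochondrial sum from 37870 to 44170 CPM.

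**Figure D1:**
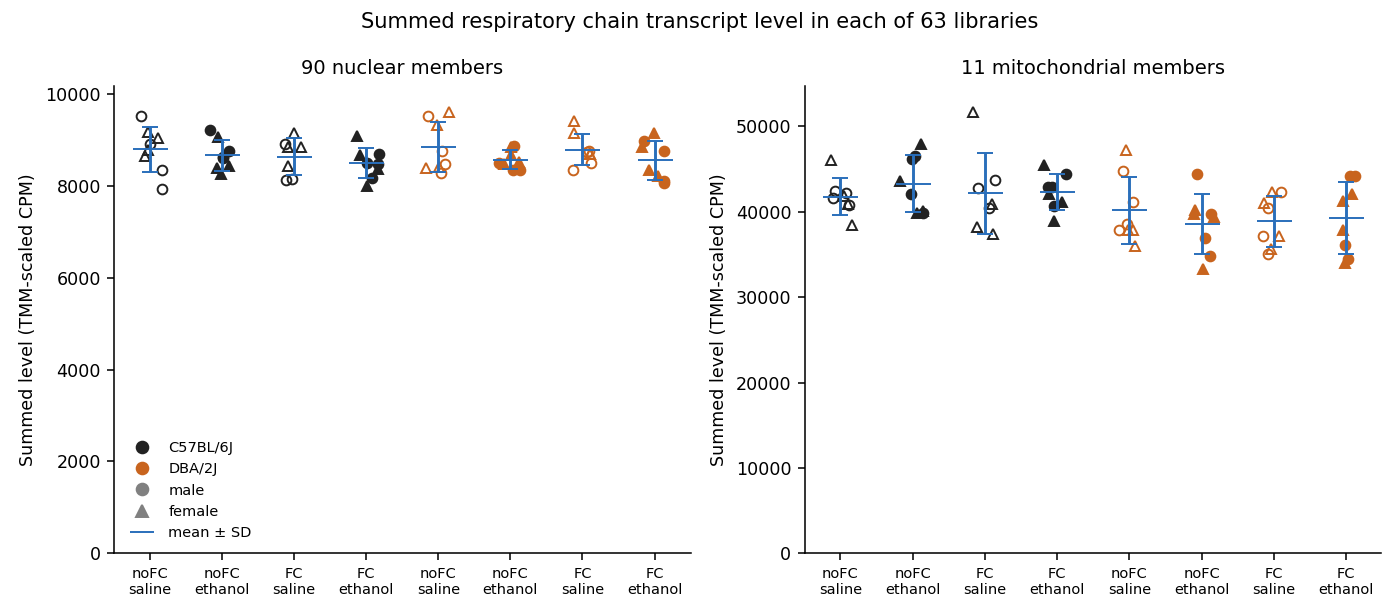
Summed level in TMM-scaled CPM (y axis) of the nuclear members (left) and the mitochondrial members (right) in each library, by strain (colour), conditioning and drug (x axis; open symbols saline, filled ethanol) and sex (symbol shape), with mean and SD in blue. Nuclear sums lie between 7944 and 9607 CPM in both strains, whereas the mitochondrial sums of DBA/2J reach down to 33330 CPM against 37380 CPM in C57BL/6J. In the mitochondrial sums mt-Co2, mt-Atp6, mt-Co3 and mt-Nd3 hold only a few CPM each on average.

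The strain comparison asked which members differ by strain, averaged over sex, drug and conditioning. By edgeR's quasi-likelihood test with Benjamini-Hochberg adjustment over 19974 genes, 52 of the 101 members (51.5%) passed an adjusted p of 0.05. Of these, 27 were higher and 25 lower in DBA/2J. Over all genes tested the share called was 50%, with 25.5% higher and 24.5% lower, so the members differed between strains about as often as other genes. Among nuclear members 27 were higher and 19 lower (median log2 difference 0.02), and among mitochondrial members 0 were higher and 6 lower (median -0.13). In Ndufa12, Ndufaf7, Cox7a2l and mt-Nd3 every DBA/2J library lay below every C57BL/6J library. The members counted as lower include Ndufa12, Cox7a2l, mt-Nd3 and mt-Co3. Their calls or directions did not hold when reads of pseudogene copies were added, as described further on. No direction is given there for Ndufa12, Cox7a2l or mt-Nd3. Over all genes tested, the strains' libraries did not overlap in 4.02%, 1.96% with DBA/2J above and 2.06% with DBA/2J below. The median size of a member's difference was 0.06, against 0.11 over all genes tested.

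**Figure D2:**
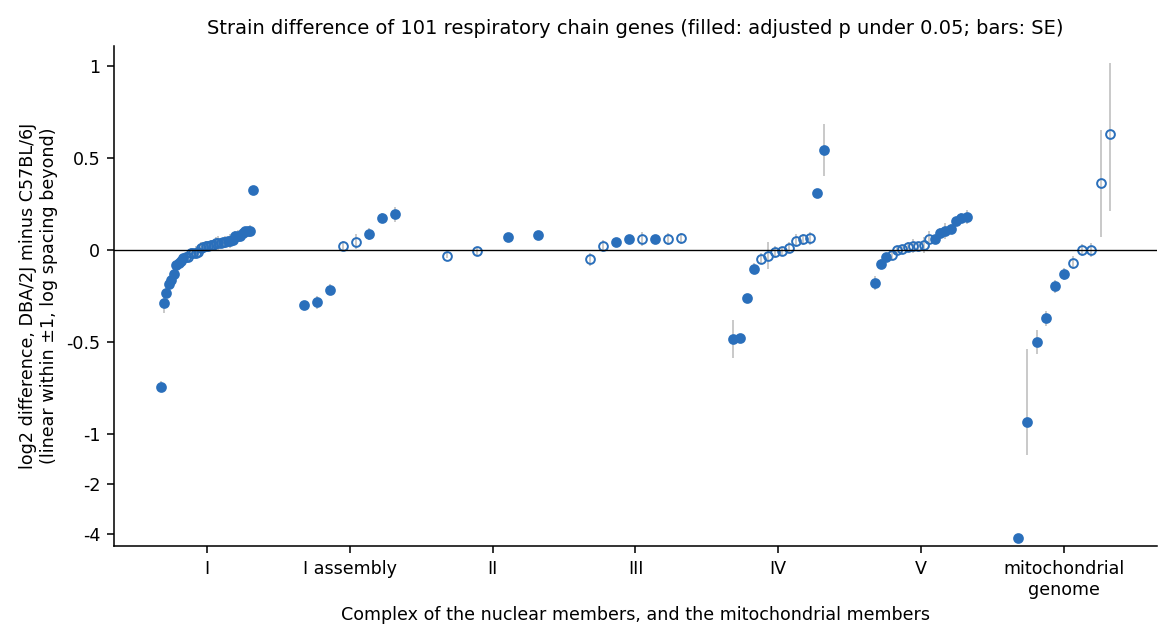
Log2 difference, DBA/2J minus C57BL/6J (y axis, linear within ±1 and log-spaced beyond), of each member, grouped by complex for nuclear members and as 1 group for the mitochondrial genome (x axis); bars are SE and filled points passed the threshold. Most points lie within 0.2 of 0, with Ndufa12 at -0.74 and mt-Nd3 at -4.26 the lowest of their groups and Cox7a2l at -0.48 near the lowest of complex IV. The differences of Ndufa12, mt-Nd3 and Cox7a2l depended on pseudogene copies.

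In complex I, 10 nuclear subunits were higher in DBA/2J, 9 lower and 19 did not pass. The share called was 50%, as over all genes tested. Ndufa12, an accessory subunit (chromosome 10, 94198720 to 94221443), ran from 37.6 to 48.9 CPM in C57BL/6J (median 43.5) and from 21.2 to 31.2 CPM in DBA/2J (median 26.3). Its log2 difference of -0.74 (SE 0.029, adjusted p = 5.5e-29) was the largest among the nuclear members, but it was lost when reads of a pseudogene copy were added, as described further on. The accessory subunits Ndufc2 (median 69.9 CPM in C57BL/6J, 59.4 in DBA/2J; log2 difference -0.23, adjusted p = 1e-10) and Ndufb10 (86.9 and 77.7 CPM; -0.16, adjusted p = 2.3e-11) were lower in DBA/2J, with libraries that overlapped. Ndufab1, the mitochondrial acyl carrier protein, was higher by 0.10 (adjusted p = 5.3e-06; medians 46.1 and 49.0 CPM). Summed over the 38 subunits these differences left almost nothing, with medians of 2597 CPM in C57BL/6J and 2602 CPM in DBA/2J.

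Among the 8 Ndufaf genes, 3 were higher and 3 lower in DBA/2J, a share of 75% beside 50% of all genes tested. Ndufaf7, a methyltransferase needed for complex I assembly (chromosome 17, 78937136 to 78948052), ran from 27.1 to 32.5 CPM in C57BL/6J (median 29.8) and from 21.4 to 27.1 CPM in DBA/2J (median 24.4), a log2 difference of -0.30 (SE 0.019, adjusted p = 3.9e-20). Its lowest C57BL/6J library lay just above its highest DBA/2J library. Ndufaf1 and Ndufaf2, which hold intermediates of complex I during its assembly, were also lower, at -0.22 (adjusted p = 3.5e-09) and -0.28 (adjusted p = 1.5e-09), with medians of 17.8 and 10.7 CPM in C57BL/6J and 15.3 and 8.81 CPM in DBA/2J. Ndufaf5, which modifies the subunit Ndufs7, was higher by 0.17 (adjusted p = 7.3e-07; 20.7 and 23.3 CPM).

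Among the nuclear genes of complexes II and III, every call was in the higher direction. These calls were few, at 50% of complex II and 37.5% of complex III, beside 50% of all genes tested. In complex II, Sdhc, a membrane anchor, was higher by 0.08 (SE 0.023, adjusted p = 0.003; medians 75.4 and 79.5 CPM) and Sdhd, the other anchor, by 0.07 (adjusted p = 0.0098; 68.1 and 71.9 CPM). Sdha (-0.03, adjusted p = 0.063) and Sdhb (-0.01, adjusted p = 0.83), which carry the flavin and the iron-sulfur clusters, did not pass. In complex III, 3 of 8 nuclear subunits were higher, all by small amounts. These were the Rieske iron-sulfur protein Uqcrfs1 (0.06, adjusted p = 0.0086) and the core proteins Uqcrc2 (0.06, adjusted p = 0.012) and Uqcrc1 (0.04, adjusted p = 0.043). The sum over complex III had medians of 784 CPM in C57BL/6J and 807 CPM in DBA/2J, and 7 of its 8 nuclear differences were positive.

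In complex IV, 2 nuclear subunits were higher and 4 lower, a share of 42.9% beside 50% of all genes tested. Cox5a and Cox5b, structural subunits on the matrix side, differed in opposite directions. Cox5a ran from 96.0 to 122 CPM in C57BL/6J (median 105) and from 119 to 147 CPM in DBA/2J (median 130), a log2 difference of 0.31 (SE 0.021, adjusted p = 1.7e-18). Cox5b ran from 101 to 131 CPM in C57BL/6J (median 111) and from 84.2 to 104 CPM in DBA/2J (median 93.2), a difference of -0.26 (SE 0.023, adjusted p = 2e-14). In each of the 2 genes only the edges of the strains' ranges overlapped. Cox7a2l, which joins complex III to complex IV in supercomplexes (chromosome 17, 83501918 to 83517330), ran from 46.4 to 56.6 CPM in C57BL/6J (median 50.9) and from 31.9 to 45.2 CPM in DBA/2J (median 35.6). That difference of -0.48 (SE 0.024, adjusted p = 1.5e-24) also depended on a pseudogene copy. Complex IV was the complex with the lower sum in DBA/2J, at a median of 1490 CPM against 1548 CPM, within ranges of 1338 to 1833 CPM.

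In complex V, 7 of 18 nuclear genes were higher and 3 lower, a share of 55.6% beside 50% of all genes tested. Atp5g1, 1 of 3 genes for the c subunit of the rotor ring, was higher by 0.18 (SE 0.026, adjusted p = 7.5e-08; medians 61.4 and 68.4 CPM). Atp5d, the delta subunit of the central stalk, was higher by 0.16 (SE 0.026, adjusted p = 8.6e-07; 146 and 164 CPM). The catalytic subunit Atp5b, the nuclear member with the most RNA per length at 1122 TPM in C57BL/6J, was lower (-0.04, adjusted p = 0.044; medians 931 and 900.5 CPM), and Atp5a1, its partner in the catalytic ring, did not pass (0.00, adjusted p = 0.91). The summed medians were 3004 and 3035 CPM.

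Several subunits exist as isoforms, 1 found in most tissues and 1 known from muscle, lung or testis. The levels here are TPM, which are scaled per transcript length, from the transcript table. The general forms Cox8a, Cox4i1, Cox6a1, Cox6b1 and Cox7a2 had medians of 1017, 903, 751, 412 and 299 TPM in C57BL/6J. The restricted forms Cox6a2, Cox6b2, Cox7a1, Cox4i2 and Cox8b had medians of 6.36, 5.64, 3.92, 3.14 and 1.23 TPM. Of the pair Ndufa4 and Ndufa4l2, the latter known to be induced by low oxygen, the first had 539 TPM and the second 5.49 TPM. Of the 4 restricted forms among the members, 3 passed. Cox6b2, the testis form, had a positive difference of 0.54 (SE 0.14, adjusted p = 0.0012), Cox6a2, the muscle form, was lower, at -0.48 (SE 0.10, adjusted p = 9.8e-05), and Ndufa4l2 was lower, at -0.29 (SE 0.057, adjusted p = 2.8e-05). These rest on levels near 2 CPM and their strains overlap. Of the common forms Cox6a1 was lower (-0.10, adjusted p = 0.0037), while Cox4i1 (-0.01, adjusted p = 0.84), Cox6b1 (0.06, adjusted p = 0.094), Cox7a2 (0.06, adjusted p = 0.13), Cox8a (0.01, adjusted p = 0.77) and Ndufa4 (0.01, adjusted p = 0.83) did not pass. Neither did Cox4i2 (-0.03, adjusted p = 0.75). Among the c-ring genes, Atp5g3 stood at 482 TPM, Atp5g1 at 332 TPM and Atp5g2 at 193 TPM in C57BL/6J, and Atp5g2 (0.02, adjusted p = 0.70) and Atp5g3 (0.02, adjusted p = 0.41) did not pass. In the transcript table Atp5g2 passed, at 0.11 (adjusted p = 2.5e-05).

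**Figure D3:**
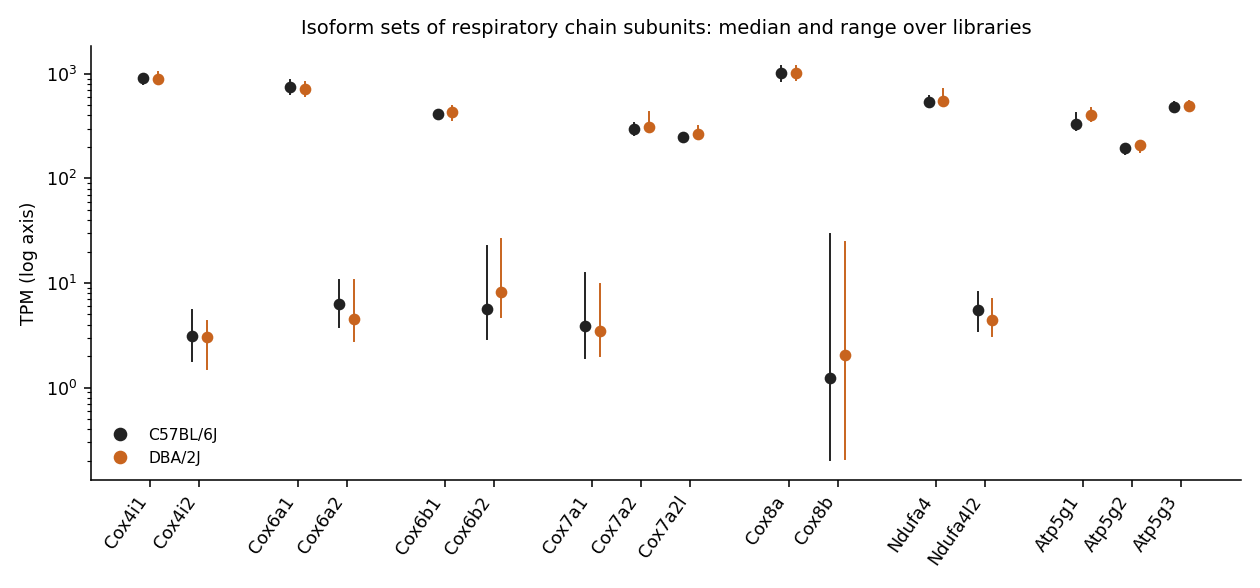
TPM on a log axis (y axis) of the isoform sets of complex IV subunits, Ndufa4 and the ATP synthase c subunit (x axis), as median (point) and lowest to highest library (line) in C57BL/6J (black) and DBA/2J (orange). General forms lie between 193 and 1017 TPM and restricted forms between 1.23 and 8.12 TPM at their medians in both strains.

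The mitochondrial genes did not move together between strains. Of the abundant ones, the 3 with the lowest coordinates did not pass. mt-Nd1, a membrane subunit of complex I, had medians of 6740 CPM in C57BL/6J and 6921 CPM in DBA/2J (log2 difference 0.00, adjusted p = 0.99). mt-Nd2, its neighbour in the membrane arm, had 5103 and 5124 CPM (0.00, adjusted p = 0.99), and mt-Co1, the catalytic subunit of complex IV, 12230 and 11650 CPM (-0.07, adjusted p = 0.099). The abundant genes at higher coordinates were lower in DBA/2J. mt-Nd4, a proton-pumping subunit of complex I, ran from 4116 to 5598 CPM in C57BL/6J (median 4533) and from 3554 to 5144 CPM in DBA/2J (median 4173), a difference of -0.13 (SE 0.035, adjusted p = 0.0013). Over 11 alternatives its difference ran from -0.15 to -0.11, and its result stayed the same in 9. A stretch of 876 bases of mt-Nd4 matches the pseudogene Gm28439 on chromosome 1 at 100% identity. mt-Cytb, the haem-bearing core of complex III, ran from 7372 to 10290 CPM (median 8449) and from 6325 to 9551 CPM (median 7324), a difference of -0.20 (SE 0.035, adjusted p = 3.9e-06). mt-Nd5, another pumping subunit, ran from 3818 to 5925 CPM (median 4858) and from 2941 to 4555 CPM (median 3760), a difference of -0.37 (SE 0.040, adjusted p = 1.3e-11). In all 3 the strains overlapped and the medians were ordered alike.

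mt-Nd6 is the only protein gene on the other strand of the mitochondrial genome (13552 to 14070), and its 3' end overlaps mt-Nd5 by position. It ran from 19.8 to 43.1 CPM in C57BL/6J (median 32.8) and from 14.2 to 33.6 CPM in DBA/2J (median 22.9), a difference of -0.50 (SE 0.065, adjusted p = 3.6e-09). The strand setting of the authors' counting is not given in the sources used here, so reads of mt-Nd5 and mt-Nd6 in the shared bases cannot be told apart. The mitochondrial ribosomal RNAs, which are not members, were lower in DBA/2J as well, mt-Rnr1 at -0.52 (adjusted p = 4.1e-15) and mt-Rnr2 at -0.40 (adjusted p = 1.8e-11). Oligodendrocyte markers moved the same way. All 6 of 6 were lower in DBA/2J (median -0.41), with sums of 7973 to 17330 CPM in C57BL/6J and 4901 to 13740 CPM in DBA/2J, and of the 6 neuron markers 1 was lower. Other cell lists differed too. All 3 dentate granule cell markers were lower in DBA/2J (median -0.29), as was 1 of 2 CA1 markers. Higher in DBA/2J were the parvalbumin interneuron marker (0.30) and all 3 blood markers (median 0.905). The CA3, astrocyte and microglia lists had calls in both directions. The part of these cell types in the mitochondrial differences was not tested.

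The remaining mitochondrial genes had gene table levels of a few CPM. Per kilobase of gene length in C57BL/6J, mt-Co3 had 1.41 CPM, mt-Atp6 2.07, mt-Co2 4.93 and mt-Nd3 9.31, against 7894 for mt-Co1 and 6992 for mt-Nd1. In the transcript table the same genes were abundant, with medians of 21590 TPM for mt-Co3, 12990 for mt-Atp6, 1695 for mt-Co2 and 1758 for mt-Nd3, beside 30950 for mt-Co1 and 14020 for mt-Nd1. mt-Atp8 and mt-Nd4l, which missed the 1 CPM limit in the gene table, had 19080 and 1671 TPM. Each of mt-Co2, mt-Atp6, mt-Co3 and mt-Nd4l matches an unprocessed pseudogene on chromosome 1 letter for letter (Gm28661, Gm10925, Gm28437 and Gm10222, at 100% identity), as a copy of a mitochondrial stretch in the nuclear genome. How the authors' counting treated reads that match more than 1 place is not given in the sources used here.

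The values of these genes scattered between libraries. mt-Co3 ran from 0.422 to 56.7 CPM in C57BL/6J (median 1.096) and from 0.425 to 8.48 CPM in DBA/2J (median 0.816). Its difference of -0.93 (SE 0.40, adjusted p = 0.046) did not pass in 34 of the 63 fits that each left out 1 library, nor in the transcript table (-0.02, adjusted p = 0.82), where its medians were 7890 and 7625 CPM. mt-Co2 (median 3.31 CPM in C57BL/6J and 3.16 in DBA/2J; 0.36, adjusted p = 0.31) and mt-Atp6 (1.39 and 1.40 CPM; 0.63, adjusted p = 0.21) did not pass. A single DBA/2J library, from the conditioned males given ethanol, held 223 CPM of mt-Atp6.

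Ndufa12, Cox7a2l and mt-Nd3 lost their call or turned direction when the reads of a pseudogene were added, and for this their sequences are shown beside the copies, from the GENCODE M21 transcripts of the reference genome, with the bases that differ in capitals. The mt-Nd3 lines are its first 60 bases (mitochondrial genome 9459 to 9518, plus strand) and those of Gm28438 (chromosome 1, 24613060 to 24613119, minus strand). The Cox7a2l lines are bases 239 to 292 of its transcript and the matching bases of Gm6969 (chromosome 12, 24638768 to 24638827, minus strand). The Ndufa12 lines are bases 195 to 254 of its transcript and the matching bases of Gm15920 (chromosome 5, 130188463 to 130188522, plus strand).
mt-Nd3: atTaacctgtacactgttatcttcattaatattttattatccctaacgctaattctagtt
Gm28438: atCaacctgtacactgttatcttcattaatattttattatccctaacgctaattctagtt
Cox7a2l: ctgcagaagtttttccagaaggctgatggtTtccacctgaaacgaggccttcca
Gm6969: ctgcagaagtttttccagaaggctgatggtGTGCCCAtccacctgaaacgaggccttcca
Ndufa12: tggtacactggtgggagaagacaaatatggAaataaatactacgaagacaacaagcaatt
Gm15920: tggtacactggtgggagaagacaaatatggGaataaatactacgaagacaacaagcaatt

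Over their aligned lengths mt-Nd3 and Gm28438 were 99.71% identical (345 bases), with the single substitution T3C counted from the first base of mt-Nd3. Ndufa12 and Gm15920 were 99.5% identical (402 bases), with A225G and T504C counted from the first base of the transcript. Cox7a2l and Gm6969 were 97.66% identical (342 bases), with T269A, C358T and 6 bases that only the copy has. Reads were 75 bases long. C57BL/6J, the reference strain, is known to carry an allele of Cox7a2l that lacks a few bases, and DBA/2J sequence was not read here.

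In each of the 3 pairs the pseudogene went opposite to its parent gene. Gm15920 ran from 11.5 to 17.3 CPM in C57BL/6J (median 13.5) and from 25.8 to 37.9 CPM in DBA/2J (median 30.0). With copies added, the Ndufa12 difference was -0.02 (adjusted p = 0.52) in place of -0.74. Gm6969 ran from 5.27 to 8.82 CPM in C57BL/6J (median 6.89) and from 19.5 to 27.2 CPM in DBA/2J (median 21.9). With it added, the Cox7a2l difference was 0.03 (adjusted p = 0.33) in place of -0.48. Gm28438 had a median of 0.167 CPM in C57BL/6J (0 to 0.690) and 4.99 CPM in DBA/2J (1.197 to 11.3), while mt-Nd3 had a median of 3.21 CPM (0.652 to 7.25) in C57BL/6J and 0.145 CPM (0 to 0.579) in DBA/2J, with 2 DBA/2J libraries at 0. Its log2 difference of -4.26 (SE 0.23, adjusted p = 1.2e-22) became 0.64 (adjusted p = 0.0014) once the copy was added. The transcript table gave other answers for the same genes. There Ndufa12 alone differed by -1.18 and by -0.04 (adjusted p = 0.24) with copies, Cox7a2l by 0.10 (adjusted p = 6.1e-05) and by 0.26 (adjusted p = 2.2e-15) with copies, and mt-Nd3 by -0.67 (adjusted p = 1.4e-05) and by -0.33 (adjusted p = 1.3e-06) with copies. No direction of a strain difference is therefore given for Ndufa12, Cox7a2l or mt-Nd3. Among the 101 members, 29 had an annotated pseudogene of at least 95% identity over 200 bases, 21 nuclear and 8 mitochondrial, and 48 members were called for strain when all copies were added to their parents. mt-Co3 was among those that no longer passed (-0.41, adjusted p = 0.27).

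**Figure D4:**
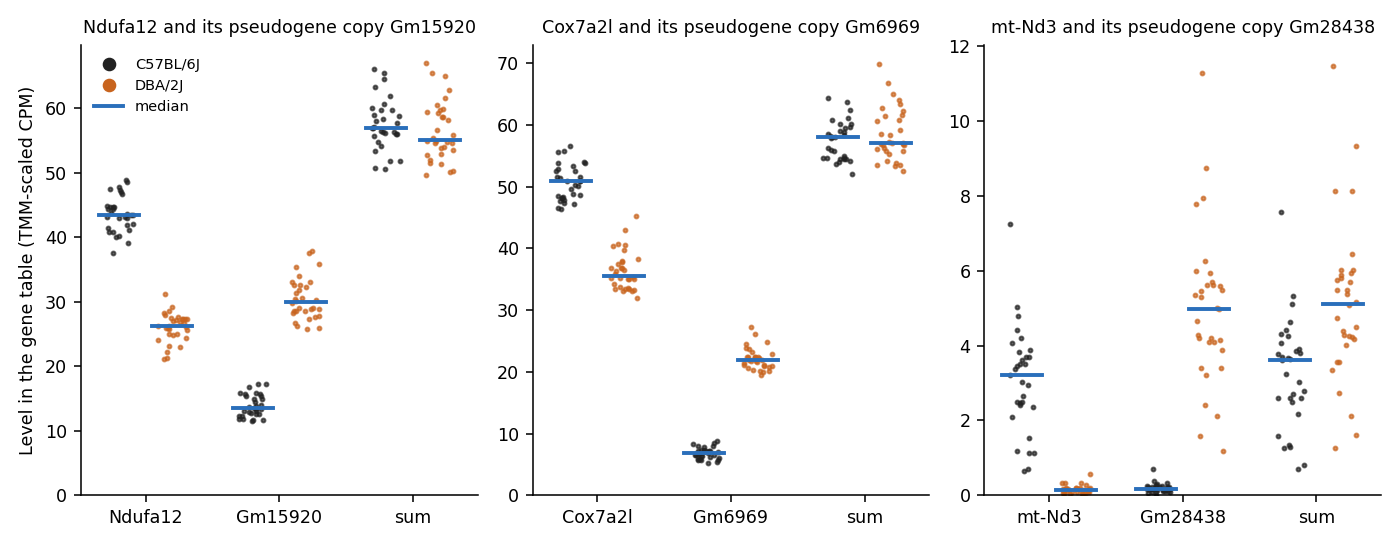
Level in the gene table in TMM-scaled CPM (y axis) of Ndufa12, Cox7a2l and mt-Nd3, of the pseudogene copy of each, and of their sum (x axis), in every library of C57BL/6J (black) and DBA/2J (orange), with medians in blue. The parent gene is lower and the copy higher in DBA/2J in all 3 pairs, as in 26.3 against 43.5 CPM for Ndufa12 and 30.0 against 13.5 CPM for Gm15920.

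Of the 52 members called for strain, 27 were also called in both the lower-numbered and the higher-numbered libraries, by the numbers in their titles, when each set was fitted alone, and all 52 had the same sign in both. The 52 were chosen from these same libraries together, so the shared sign is not independent evidence for them. Of the 52, 51 had a value in the transcript table, where 46 were called in the same direction and 1, Cox7a2l, in the opposite direction. mt-Nd5 stayed between -0.40 and -0.34 and mt-Nd6 between -0.58 and -0.44 over 11 alternatives.

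How a gene's counts divided among its transcripts also differed between strains. Among 54 members with more than 1 transcript, 17 passed (adjusted p under 0.05, diffSplice), beside 25.6% of the 9564 genes tested. For Ndufa12, the protein-coding transcript Ndufa12-204 fell from 69.1% of the gene's counts in C57BL/6J to 16.8% in DBA/2J, and Ndufa12-203, annotated as subject to nonsense-mediated decay, rose from 29.4% to 80.3% (gene adjusted p = 1.3e-56); the copy Gm15920 matches this gene, so the shares carry the same doubt as its level. Ndufaf7-203 rose from 13.4% to 30.1% while Ndufaf7-201 fell from 55.3% to 41.2% (adjusted p = 4.9e-48). For Ndufaf2, the decay-annotated Ndufaf2-203 rose from 8.91% to 19.5% (adjusted p = 1.6e-19). Smaller shifts were found in Atp5mpl, a small subunit of complex V, where Atp5mpl-203 fell from 10.8% to 3.55% (adjusted p = 1.2e-23), in Ndufa9, where Ndufa9-203 fell from 24.4% to 19.8% (adjusted p = 2.1e-09), and in Cox5b, where Cox5b-201 fell from 52% to 45.6% (adjusted p = 1.3e-08).

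Genes that serve the chain showed a mixed strain pattern as well. Over all genes tested 50% were called, 25.5% higher and 24.5% lower. The share called was 61.5% of citrate cycle genes, 73.7% of complex I and 42.9% of complex IV assembly factors. It was 25% of complex II assembly factors, 35% of transcription and RNA genes, 33.3% of regulators and 37.5% of carriers and exchange genes. Of 13 citrate cycle genes, which feed it with NADH and succinate, 8 were higher in DBA/2J and 0 lower (median 0.06), with the smallest p for Suclg1 (0.10, adjusted p = 9.4e-06), a subunit of succinyl-CoA ligase, and Idh3g (0.09, adjusted p = 1.7e-05), of isocitrate dehydrogenase. Of 19 complex I assembly factors, 6 were higher and 8 lower, among them Tmem126a at -0.19 (adjusted p = 1.5e-08) and Aifm1 at 0.20 (adjusted p = 1.6e-06). Of 21 complex IV assembly factors, 6 were higher and 3 lower. Cox18, which inserts mt-Co2 protein into the membrane, was higher by 0.62 (adjusted p = 4.2e-29) and Coa3, which stabilises mt-Co1 protein, lower, at -0.24 (adjusted p = 2.5e-11). Sdhaf1, which helps to insert iron-sulfur clusters into Sdhb, was the 1 of 4 complex II assembly factors to pass, at -0.57 (adjusted p = 1.4e-23). Of 20 genes of mitochondrial transcription and RNA handling, 3 were higher and 4 lower. The mitochondrial DNA polymerase Polg was higher by 0.23 (adjusted p = 2.6e-15), and Lrpprc, which stabilises mitochondrial messages, lower, at -0.14 (adjusted p = 7.6e-08). Of 12 regulators, Ppargc1a (0.21, adjusted p = 1.3e-08) and Esrra (0.14, adjusted p = 5.1e-07), which activate respiratory genes, were higher together with the mitochondrial deacetylase Sirt3 (0.10, adjusted p = 0.0014), while Nfe2l2 was lower (-0.31, adjusted p = 2.3e-05). Of 16 electron carriers and ATP exchange genes, 5 were higher and 1 lower, with mitochondrial creatine kinase Ckmt1 at 0.49 (adjusted p = 5.2e-20) and the phosphate carrier Slc25a3 at -0.12 (adjusted p = 2.1e-08).

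The ethanol comparison asked what a single dose did to these transcripts. No member passed the threshold in edgeR, averaged over strains or in either strain, and none passed in DESeq2. Over all genes the share called was 0.546% for ethanol with strains averaged, 0.0901% in C57BL/6J and 0.295% in DBA/2J, a rate at which few calls would fall on 101 genes. At an unadjusted p under 0.05 there were 8 members with strains averaged, 2 in C57BL/6J and 10 in DBA/2J, beside 8.6%, 4.22% and 8.36% of all genes. Ndufb2, a small accessory subunit of complex I, had the smallest p. In C57BL/6J it ran from 48.7 to 59.8 CPM with saline (median 56.3, n = 15) and from 45.7 to 59.7 CPM with ethanol (median 51.7, n = 16). In DBA/2J it ran from 47.9 to 72.0 CPM with saline (median 55.2) and from 49.5 to 58.4 CPM with ethanol (median 51.6). Groups overlapped, and the log2 difference was -0.09 with strains averaged (SE 0.027, adjusted p = 0.12), -0.08 in C57BL/6J (adjusted p = 1) and -0.11 in DBA/2J (adjusted p = 0.31). It passed once, when 1 library of the female DBA/2J noFC saline group was left out. Ndufb10 (-0.04, adjusted p = 0.48) and Ndufs4 (-0.06, adjusted p = 0.50) came next with strains averaged. In DBA/2J, Sdhb had medians of 90.03 CPM with saline (79.4 to 103) and 84.5 CPM with ethanol (79.8 to 90.1), a difference of -0.08 (adjusted p = 0.38), and Ndufs4 differed by -0.09 (adjusted p = 0.44). In C57BL/6J, mt-Co3 (1.92, adjusted p = 0.40) and Ndufs3 (-0.07, adjusted p = 1) had the smallest p, mt-Co3 on levels of a few CPM.

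The signs of the ethanol differences leaned one way for nuclear genes. In DBA/2J, 88 of 90 nuclear members had a negative difference (median -0.05, from -0.11 to 0.12), in C57BL/6J 78 of 90 (median -0.02). Over all genes tested, 9619 of 19974 differences were negative in DBA/2J (median 0.0026) and 10322 in C57BL/6J (median -0.0020). Complexes were alike in this, with DBA/2J medians from -0.04 to -0.05 in each of complexes I to V. Mitochondrial members had 9 of 11 negative in DBA/2J (median -0.04) and 2 of 11 in C57BL/6J (median 0.02). The nuclear sum had a mean of 8823 ± 444 CPM (SD, n = 16) with saline and 8571 ± 324.2 CPM (n = 16) with ethanol in DBA/2J, and of 8727 ± 444 CPM (n = 15) and 8586 ± 333 CPM (n = 16) in C57BL/6J. The differences were smaller than 1 SD. Members share libraries, so their signs are not independent of each other. The 77 tested genes of the cytosolic ribosome leaned with them, 73 negative in DBA/2J (median -0.06) and 48 in C57BL/6J (median -0.01). All 8 choroid plexus markers were also negative with ethanol in each strain (medians -0.27 and -0.29), and the oligodendrocyte markers were positive in DBA/2J (6 of 6, median 0.15). With choroid plexus level as a covariate, 97 of the 101 members were negative in DBA/2J, as without it. That count does not show how far the differences moved. Oligodendrocyte level was not used as a covariate, and the part of either cell type in the member values was not tested. Whether the response differed between strains was tested as an interaction, for which 0.01% of all genes and no member passed, and 3 members had an unadjusted p under 0.05 beside 3.6% of all genes. The smallest p were those of mt-Co3 (-2.26), Cox7c (-0.16) and Ndufb4 (-0.12), each with adjusted p = 1.

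Among the lists beside the chain, 2 of 12 regulators passed for ethanol with strains averaged, both lower, beside 0.546% of all genes tested. These were Pprc1, a coactivator of the Ppargc1a family (-0.11, SE 0.028, adjusted p = 0.028), and the deacetylase Sirt1 (-0.10, SE 0.026, adjusted p = 0.039). No gene passed among the 19 complex I assembly factors, 21 complex IV assembly factors, 13 citrate cycle genes, 20 genes of mitochondrial transcription and RNA handling, 16 electron carriers and ATP exchange genes, or the mitochondrial ribosome (48 large and 28 small subunit genes).

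**Figure D5:**
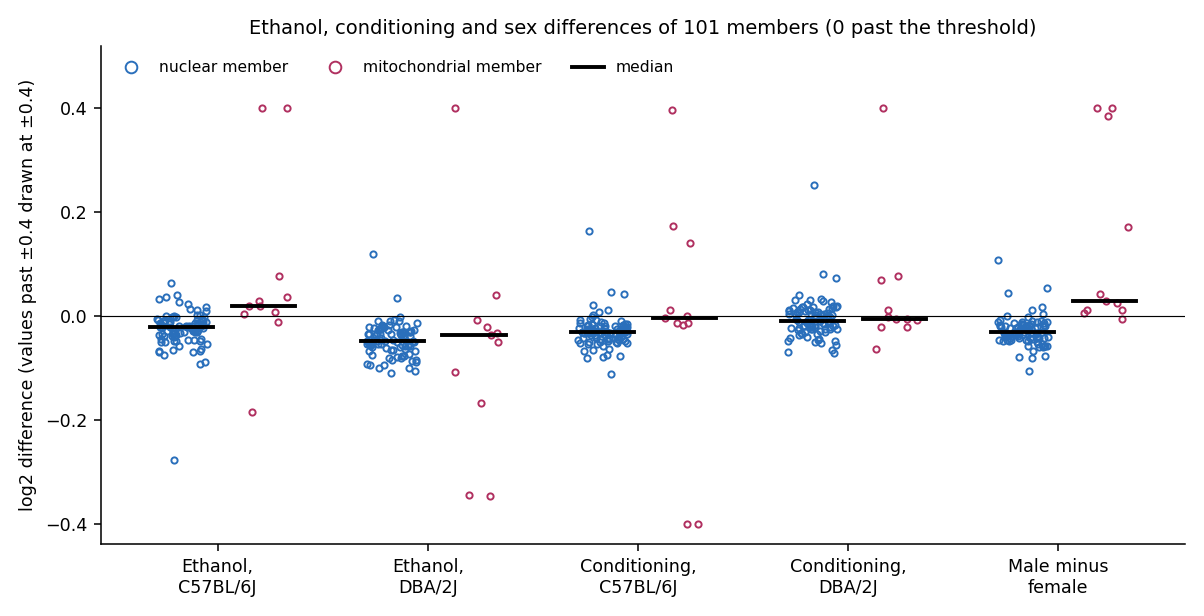
Log2 difference (y axis, values past ±0.4 drawn at ±0.4) of each nuclear (blue) and mitochondrial (red) member for ethanol minus saline and FC minus noFC in each strain and for male minus female (x axis), with medians as black bars. No point passed the threshold, and the nuclear medians lie between -0.05 and -0.01.

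Fear conditioning gave no call either. Over all genes the share called was 0.02% with strains averaged and 0% within each strain, and no member passed in edgeR or DESeq2. At an unadjusted p under 0.05 there was 1 member with strains averaged, 2 in C57BL/6J and 1 in DBA/2J, beside 3.49%, 3.94% and 3.35% of all genes. In C57BL/6J the smallest p were those of Ndufs5 (-0.11), Ndufa9 (-0.07) and Ndufaf1 (-0.08), complex I subunits and an assembly factor. In DBA/2J and with strains averaged they were those of mt-Co2 (1.13 and 0.76), Cox7c (-0.07 and -0.06) and Ndufs6 (-0.07 and -0.06), each with adjusted p = 1. Negative signs were found in 83 of 90 nuclear members in C57BL/6J (median -0.03) and in 52 of 90 in DBA/2J (median -0.01), beside 49.6% and 49.2% of all genes tested. The nuclear sum had means of 8737 ± 412 CPM (SD, n = 16) without and 8567 ± 360 CPM (n = 15) with conditioning in C57BL/6J, and of 8715 ± 426 and 8679 ± 393 CPM in DBA/2J. The cytosolic ribosome leaned the same way, with 74 of 77 genes negative in C57BL/6J (median -0.03) and 61 of 77 in DBA/2J (median -0.02). Negative differences were also found for the dentate granule cell markers (3 of 3 in each strain, medians -0.07 and -0.10) and the oligodendrocyte markers (5 of 6 in C57BL/6J, median -0.03, and 6 of 6 in DBA/2J, median -0.12). Choroid plexus markers were positive with conditioning in 3 of 8 in C57BL/6J (median -0.01) and in 8 of 8 in DBA/2J (median 1.46; noFC sums 225 to 11040 CPM, FC sums 232 to 17100 CPM), and meningeal markers in 5 of 5 in each strain (medians 0.21 and 0.25). The part of these in the member values was not tested. The difference of the conditioning effect between strains, called in 0% of all genes, gave no member. Its smallest p were those of Ndufs3 (0.09), Ndufa9 (0.08) and Ndufaf1 (0.11), and 1 member was under 0.05 unadjusted beside 3.63% of all genes. For the difference of the ethanol effect between FC and noFC, also called in 0% of all genes, the smallest p were those of Ndufaf2 (0.13), Cox6a2 (0.36) and Ndufv3 (-0.07), and 0 members were under 0.05 unadjusted, beside 2.96% of all genes.

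Males and females were compared in the same way, averaged over strain, drug and conditioning. No member passed in edgeR or DESeq2, beside 0.2% of all genes, and 10 members had an unadjusted p under 0.05, beside 5.48% of all genes. The smallest p were those of Ndufaf3 (-0.08, adjusted p = 0.58), Ndufc2 (-0.08, adjusted p = 0.58) and Ndufa13 (-0.08, adjusted p = 0.79), all lower in males. Signs were negative in 84 of 90 nuclear members (median -0.03) and positive in 10 of 11 mitochondrial members (median 0.03), and 48.2% of all genes tested were negative. The cytosolic ribosome had 66 of 77 genes negative (median -0.02). Markers of choroid plexus (8 of 8, median 0.51), meninges (5 of 5, median 0.25) and oligodendrocytes (6 of 6, median 0.06) were positive, and their part in the member values was not tested. The SE limits what could be seen: its median over members was 0.028 for strain and 0.040 for ethanol within a strain. In simulated counts with the same design, a 1.2-fold change was recovered for 72% of changed genes in the strain comparison and 54% for ethanol in DBA/2J. A 1.1-fold change was recovered for 44% and 16.7%. The simulation changed 50 genes per fold, drawn from all genes tested whatever their level. Its rates are therefore not the recovery rates of the members.

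The nuclear members also share letters in their promoters, which the choice of members did not use. RefSeq promoters (GRCm38.p6, 250 bases before to 50 after the start) were found for 74 of the 90 nuclear members, 72 by symbol, and 73 genes could be set beside 16515 coding genes. The NRF1 motif, GCGCA then 1 base of any kind then GCGC, searched on both strands like the others, occurred in 19 (26%) against 7.45% of coding genes. The ETS motif CCGGAAG occurred in 18 (24.7%) against 13.4%, and the YY1 motif, AAGATG followed directly by GCGGC, whose first 3 letters can overlap the end of an ETS match, in 5 (6.85%) against 1.12%. NRF1 and the ETS factor NRF2 are known activators of respiratory genes. A match is not a bound site, and base composition was not matched. The promoter of Sdha, the flavin subunit of complex II (chr13:74350191-74350490, minus strand), is shown because it held 3 NRF1 matches, in capitals.
Sdha: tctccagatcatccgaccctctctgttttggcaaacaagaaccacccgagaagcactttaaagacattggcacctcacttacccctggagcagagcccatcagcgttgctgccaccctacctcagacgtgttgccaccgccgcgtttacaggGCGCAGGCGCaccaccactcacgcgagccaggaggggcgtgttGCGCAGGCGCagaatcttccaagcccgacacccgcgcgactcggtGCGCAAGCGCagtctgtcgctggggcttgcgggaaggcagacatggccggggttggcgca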

How the data were processed

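The authors deposited whole-number read counts per gene and, in a second table, estimated counts per transcript, both with a column for each of the libraries. The tools named in the submitters' processing notes are fastp, HISAT2, featureCounts, Salmon and DESeq2, and the build is GRCm38, with versions and the settings for strand and for multiply mapping reads not given in the sources used here. Per the labels, poly(A) RNA was made into stranded libraries and read from 1 end at 75 bases. TPM was computed here from the deposited estimated counts and the GENCODE M21 transcript lengths, and those counts were rounded for tests.

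Genes were filtered with filterByExpr (minimum count 10), which kept 19974 genes with 99.95% of the counts, and scaled with TMM (factors 0.96 to 1.05). Contrasts were tested with edgeR 4.0.16 (quasi-likelihood, 1 coefficient per group, two-sided, all 63 libraries), adjusted by Benjamini and Hochberg over all genes tested and called at an adjusted p under 0.05. Transcript usage was tested with diffSplice in limma 3.58.1 over transcripts with at least 5% of their gene. DESeq2 1.42.0, other scalings, no filter, the transcript table, the block of title numbers, the libraries with the lower or the higher title numbers alone, a choroid plexus covariate and each library left out in turn were alternatives. Adding pseudogene copies found with BLAST+ 2.17.0 (at least 95% identity over 200 bases) was an alternative chosen after seeing the data. Scripts were tested on simulated data.

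The members and lists were chosen with earlier results of these data known. Named genes were all mitochondrial members; for strain up to 6 nuclear members per direction and the called member of each complex with the smallest p; for other contrasts the 3 members with the smallest p where none was called; the isoform sets; up to 4 per direction of each list; the members nearest the 1 CPM limit; and the closest pseudogenes. Sdha, Sdhb, Sdhd, Uqcrc1, Uqcrc2, Atp5b, Atp5a1 and the genes named for transcript usage were chosen after their values were seen. A result of 1 member is not reported here.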

Additional observations from a re-analysis of the deposited data

Results flagged for a closer look

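In 22 of 195 checks, over 13 quantities in groups of 4 libraries, the highest or lowest library stood apart from the other 3 by more of the group's range than Dixon's limit allows. Chance alone gives about 1 in 20 such checks. Most of these concerned mt-Co2, mt-Atp6 and mt-Co3, whose gene table levels are a few CPM. For mt-Co2, the libraries that stood high were a C57BL/6J conditioned ethanol female at 16.7 CPM (nearest 4.5) and male at 14.8 CPM (3.77), C57BL/6J unconditioned saline male at 5.93 CPM (1.89), DBA/2J conditioned ethanol female at 20.7 CPM (1.67) and male at 17.4 CPM (3.36), and DBA/2J conditioned saline male at 31.6 CPM (8.04). For mt-Atp6 they were a C57BL/6J conditioned ethanol male at 10.3 CPM (1.08), DBA/2J conditioned ethanol female at 3.14 CPM (0.748) and male at 223 CPM (3.47), and DBA/2J unconditioned saline male at 7.66 CPM (1.74). For mt-Co3 they were 2 C57BL/6J ethanol males, conditioned at 18.7 CPM (0.658) and unconditioned at 56.7 CPM (5.40), and DBA/2J unconditioned saline female at 2.62 CPM (0.662) and male at 8.48 CPM (1.74). A male library of the DBA/2J unconditioned saline group held 0.579 CPM of mt-Nd3 (0.0781).

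Among the abundant mitochondrial genes, 2 libraries of unconditioned DBA/2J females stood apart in opposite directions. The ethanol library was low for the mitochondrial sum at 33300 CPM (39400), for mt-Nd2 at 4180 CPM (5130) and for mt-Nd5 at 2940 CPM (3800), and the saline library was high for mt-Co1 at 15500 CPM (11400) and for mt-Cytb at 9550 CPM (7240). A library of conditioned ethanol C57BL/6J females was high for mt-Nd2 at 5760 CPM (4780) and for mt-Nd6 at 38.4 CPM (33.4).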

How the results depend on the processing

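Of the 52 members called for strain, 28 members were called from the libraries with the lower title numbers alone and 32 from those with the higher numbers alone, with fewer libraries in each; over all genes the shares were 35.3% and 35.6%. The count was 45 to 53 under the other alternatives and 46 to 52 with a library left out, where ethanol gave 0 to 1 members. Among the called members named for strain, mt-Nd3 and Cox7a2l turned direction. mt-Nd3 stood at 0.64 with copies added to the gene table, and Cox7a2l at 0.026 with copies added there, at 0.10 in the transcript table and at 0.26 with copies added to it. Of the members not called, mt-Co2 (down to -0.17), mt-Atp6 (-0.19) and Atp5g2 (-0.06) were among those whose sign changed over the 11 alternatives. The other counts of members called, the medians and the sums stayed within 1.5 times or 1 SD. Cox6b1 passed for strain with plain library totals (0.08, adjusted p = 0.026, edgeR) and mt-Co1 in the transcript table with copies added (-0.09, adjusted p = 0.035). The labels do not say what a title number marks, and 32 of 93 same-number pairs correlated above 0.1 (median 0.0402), as did 73 of 279 other pairs (median -0.00971), so the numbers were not taken as pairs. That 29 of 63 libraries were closest to their own number is a hint of pairing from the data, not from the design. All libraries of a title number share strain and sex. A block of numbers could therefore not be fitted for the strain and sex contrasts. Their p-values treat each library as separate and were not checked against likeness within a number. With the replicate block, 0 members were called in each contrast of drug and conditioning, and all-gene calls for ethanol in DBA/2J were 109 against 59. No other count of members called moved. Leaving out 1 library took the mt-Atp6 strain difference from 0.63 to -0.01 (conditioned ethanol DBA/2J male) and that of mt-Co2 from 0.36 to 0.08 (conditioned ethanol DBA/2J female). The depth of mt-Nd3 in DBA/2J, at a median of 0.145 CPM, limits its values.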
